A study of Mus musculus with 15 samples.

Results

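Myc, Ccnd1, Ccnd2, Ccnd3, Cd44 and Sox4 are growth-linked genes that are often read as targets of Wnt signalling in epithelial tissue, and their RNA was compared here in mouse blood progenitors that carried 4 genotypes of Apc. Every probe set that the platform's annotation assigns to 1 of these 6 symbols alone was taken, whatever its values. That gave 26 of the 45101 probe sets on the array, with 1 for Myc, 3 for Ccnd1, 7 for Ccnd2, 3 for Ccnd3, 4 for Cd44 and 8 for Sox4. The 6 genes belong to 18194 genes with a probe set of their own. No filter on low values was used, so all 26 probe sets entered the tests.

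No probe set of these genes passed the test in any genotype, while the feedback genes of the same pathway rose up to 27.21-fold in the same RNA. With limma, 0 of 26 probe sets had an adjusted p under 0.05 in any of the 3 comparisons with wild type. An unadjusted p under 0.05 was found for 7, 9 and 1 of 26 in 15lox/15lox, 15lox/1638N and 15lox/1572T. The share of all probe sets or genes at an unadjusted p under 0.05 is not given here. Whether such counts, here or in the gene lists below, exceed the rate over the array was therefore not tested. The largest log2 difference from wild type was -0.86, at Sox4 1419157_at in 15lox/1572T. A pair of Ccnd3 probe sets in 15lox/1638N went opposite ways, by -0.85 and 0.75. Next came Myc in 15lox/1638N at 0.66 and Sox4 1419156_at in 15lox/15lox at 0.63. Cd44 differed by at most 0.32 in 15lox/15lox and 0.38 in 15lox/1638N. Myc, Ccnd1 and Ccnd2 showed no common direction over the genotypes.

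Expression was measured on 15 arrays, 1 per sample, of LSK cells from C57BL6 bone marrow, a sorted population without lineage markers that carries Sca1 and Kit and holds the blood stem cells. All samples, wild type included, were transduced ex vivo with the retrovirus MSCV-Cre-IRES-GFP, kept in Stemspan with mFlt3L, mTpo and mSCF, and sorted for GFP, and RNA came from more than 10000 cells each. The groups were wt/wt (6 arrays), 15lox/15lox (3 arrays, titled KO), 15lox/1638N (3 arrays) and 15lox/1572T (3 arrays), where 15lox is a floxed Apc allele that Cre acts on and 1638N and 1572T are hypomorphic alleles. The labels give no age, and they do not say whether the samples of a group came from separate animals, and every p-value here therefore reflects only sample-to-sample spread, which may be technical. In bulk RNA such as this, fewer cells of a type and less RNA per cell cannot be told apart.

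The Apc protein holds together the machinery that has beta-catenin destroyed. When Apc is lost, beta-catenin enters the nucleus, binds factors of the Tcf/Lef family and switches on target genes, among them Axin2 and Lef1, which respond in many tissues. In intestinal epithelium Myc and the D cyclins are known as growth-promoting targets or downstream genes of the pathway, and Cd44 and Sox4 are raised in tumours that lack Apc. Myc is a transcription factor that drives growth and ribosome production, the D cyclins activate Cdk4 and Cdk6 in G1 phase, Cd44 is a surface receptor for hyaluronan, and Sox4 is a transcription factor needed for early B cell development.

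The labels were checked against Apc itself, which was not among the genes chosen by the rule for naming. At probe set 1420956_at the log2 value was 9.717, 9.605 and 9.928 on wild-type arrays 4 to 6. It was 5.584, 6.097 and 5.686 in 15lox/15lox, 8.466, 8.674 and 8.524 in 15lox/1638N, and 8.965, 8.858 and 8.639 in 15lox/1572T. All 3 15lox/15lox arrays lay far below every other array, and the value was 15.57-fold lower than in wild type (log2 difference -3.96 ± 0.15 SE, n = 3 and 3, adjusted p = 8.88e-07). Probe sets 1420957_at and 1450056_at fell too in 15lox/15lox, whereas 1435543_at rose by 0.77 on the log2 scale (adjusted p = 0.0133), and which parts of the transcript these probe sets read was not analysed here.

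Wild-type arrays 4 to 6 are the control group. At 96.7% of probe sets their mean was matched within 0.05 by that of wild-type arrays 1 to 3, and arrays 1 to 3 held 3 equal values at 18.2% of probe sets against 0.0177% in arrays 4 to 6. At 21 of the 26 probe sets of the 6 genes the means of these sets lay within 0.05 of each other, so arrays 1 to 3 look shifted onto arrays 4 to 6 and are used only as an alternative. Array medians ran from 6.654 to 6.841 and set no array apart. By the level of Xist alone, 0 of 3 wild-type arrays were of female type, against 2 of 3 in 15lox/15lox, 1 of 3 in 15lox/1638N and 1 of 3 in 15lox/1572T. Y-linked genes did not enter these calls. A fit with sex as a covariate called 0 of the 26 probe sets in each of the 6 comparisons. The fit without sex called 0 as well, so this count cannot show what part sex had. That part was not tested further for the 6 genes. The progenitor markers Kit, Cd34 and Flt3 had wild-type means of 11.19, 13.34 and 12.72. They belong to 7 measured stem and progenitor markers, whose mean was 11.13 to 11.36 on the wild-type arrays. Myeloid and dendritic markers had means of 9.35 to 9.56 on these arrays. Erythroid and megakaryocyte markers had means of 8.98 to 9.56.

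The windows upstream of Cd44 and Sox4 are shown because the values of these genes stood above wild type most often, and because the motif of Tcf/Lef factors can be looked for there. The RefSeq promoter table of build GRCm38.p6 held a window for 3 of the 6 genes, Ccnd3, Cd44 and Sox4. Each sequence is the 250 bases before the annotated start, read 5′ to 3′ on the gene's strand. Capitals mark the core CTTTG of the Tcf/Lef motif or its reverse complement CAAAG.
Cd44, chr2:102901666-102901915, minus strand: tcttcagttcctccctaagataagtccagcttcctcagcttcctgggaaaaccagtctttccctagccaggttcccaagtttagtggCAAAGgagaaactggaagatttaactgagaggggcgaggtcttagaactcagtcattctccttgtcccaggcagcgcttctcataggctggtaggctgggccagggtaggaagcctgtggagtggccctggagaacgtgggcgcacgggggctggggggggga
Sox4, chr13:28953700-28953949, minus strand: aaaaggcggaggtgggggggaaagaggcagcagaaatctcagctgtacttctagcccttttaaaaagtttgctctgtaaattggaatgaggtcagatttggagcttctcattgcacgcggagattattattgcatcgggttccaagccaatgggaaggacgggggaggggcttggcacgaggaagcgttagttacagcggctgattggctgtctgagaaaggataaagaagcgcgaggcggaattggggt
The Cd44 window held the core once, starting at -163 from the start site, and the Sox4 window held none. The core was found in 48.6% of all 32851 windows of this length, so its presence marks no gene out. The longer forms CTTTGAT and CTTTGAA, searched on both strands, were in 7.5% of all windows and in none of the windows of Ccnd3, Cd44, Sox4, Axin2 or Lef1.

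Axin2 and Lef1, a negative regulator of the pathway and one of its transcription factors, show how strongly the pathway's own targets moved. At Axin2 probe set 1436845_at the wild-type arrays read 7.258, 7.382 and 7.572, the 15lox/1572T arrays 7.692, 8.804 and 9.323, the 15lox/1638N arrays 11.17, 11.1 and 11.51 and the 15lox/15lox arrays 12.28, 12.29 and 11.94. The groups did not overlap and followed the order 1572T, 1638N, 15lox. Axin2 was 27.21-fold higher in 15lox/15lox (log2 4.77 ± 0.32 SE, adjusted p = 1.88e-05), and it was 14.48-fold higher in 15lox/1638N (adjusted p = 0.000228). In 15lox/1572T its log2 difference was 1.20, which did not pass (adjusted p = 0.447). Lef1 at 1454734_at rose by 3.94 in 15lox/15lox (adjusted p = 0.000459) and by 3.92 in 15lox/1638N (adjusted p = 0.00119) on the log2 scale. It differed by -0.31 in 15lox/1572T (adjusted p = 0.926). The other probe set of each gene was dimmer and moved less. Axin2 1421341_at rose by 1.11 in 15lox/15lox (adjusted p = 0.024). It differed by 0.82 in 15lox/1638N (adjusted p = 0.0934) and by 0.23 in 15lox/1572T (adjusted p = 0.879). Lef1 1421299_a_at differed by 0.37, 0.16 and -0.20 in 15lox/15lox, 15lox/1638N and 15lox/1572T and did not pass.

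The question the 6 genes answer is whether growth-linked targets moved with that response. Over all probe sets 1.49% passed the test in 15lox/15lox, 1.38% in 15lox/1638N and 0.0288% in 15lox/1572T. A count of 0 of 26 lies near these background rates. What the data bound is the size of a change in the reading of a probe set. The 95% confidence interval lay within a 2-fold change either way for 25 of 26 probe sets in 15lox/15lox, 23 in 15lox/1638N and 24 in 15lox/1572T. It lay within 1.5-fold for 14, 12 and 19 of 26. Such an interval does not bound the change of the transcript where a probe set responds weakly. At the dim Lef1 1421299_a_at the interval in 15lox/15lox was 1.075 to 1.561 times wild type, while Lef1 1454734_at read 15.36-fold higher. Dim probe sets of Cd44 and Sox4 are among the 26, and several probe sets repeat the same gene. The median log2 difference over the 26 was 0.00, 0.20 and -0.02 in 15lox/15lox, 15lox/1638N and 15lox/1572T, against -0.03, 0.00 and -0.01 over all probe sets.

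**Figure D1:**
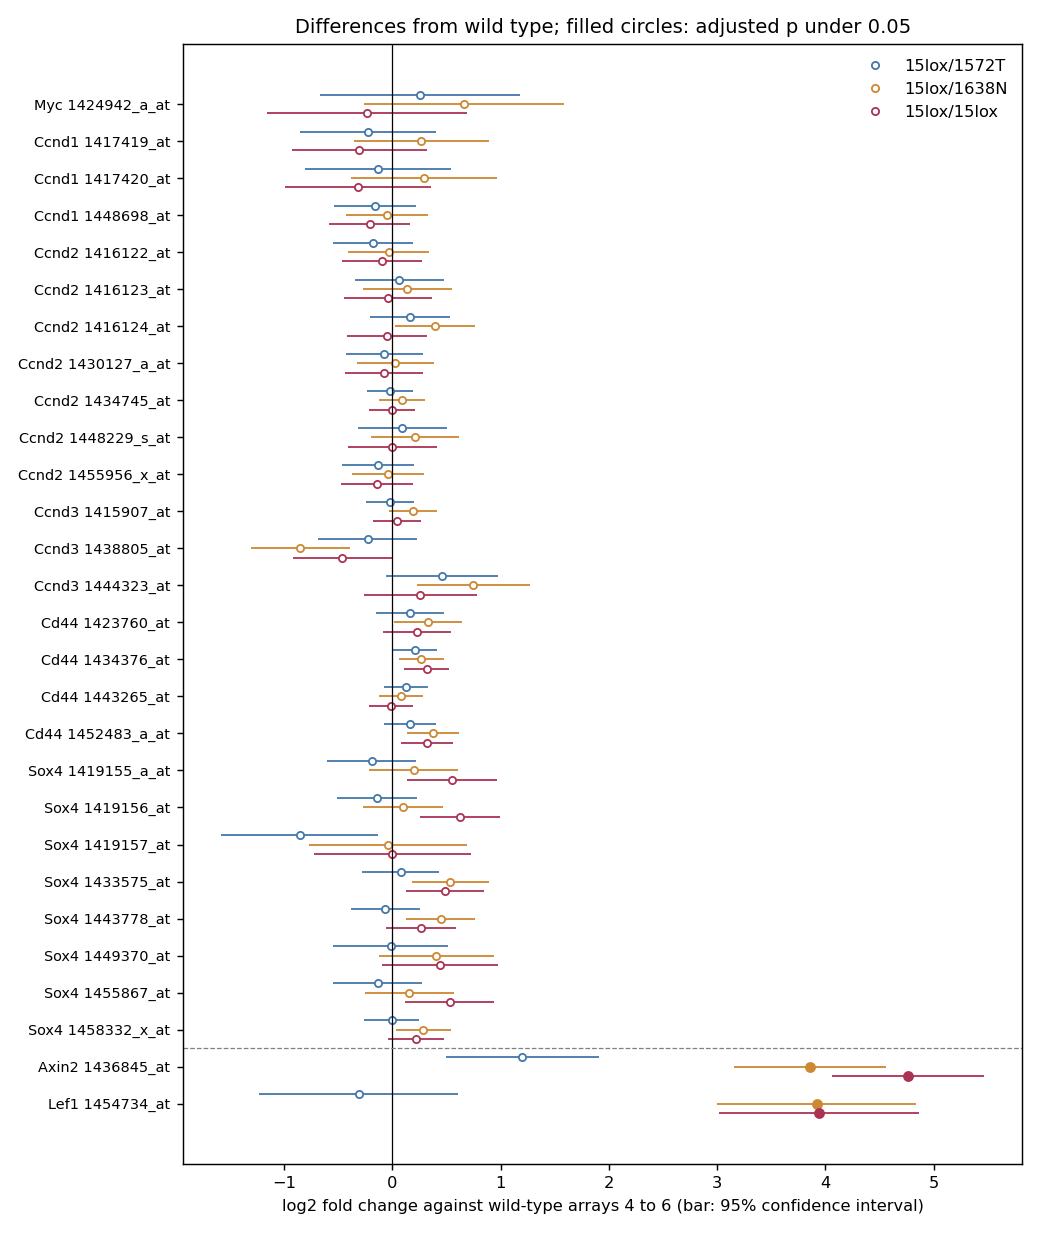
Log2 fold change against wild-type arrays 4 to 6 (x axis) for each probe set (y axis) of the 6 genes, with Axin2 and Lef1 under the dashed line, in the 3 mutant genotypes (n = 3 each). Bars are 95% confidence intervals and filled circles have an adjusted p under 0.05. None of the 26 probe sets above the line is filled, and the largest differences above it are those of Ccnd3, Myc and Sox4, all under 1 in size.

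Myc has a single probe set, 1424942_a_at. Its log2 values were 11.51, 11.6 and 10.59 in wild type, 11.71, 11.13 and 11.62 in 15lox/1572T, 11.87, 12.26 and 11.55 in 15lox/1638N, and 11.77, 11.27 and 9.949 in 15lox/15lox. All 4 groups overlapped, and wild-type array 6 and 15lox/15lox array 3 lay far below the other arrays of their groups. The mean ran from 11.00 ± 0.94 (SD, n = 3) in 15lox/15lox through 11.23 ± 0.56 in wild type and 11.49 ± 0.31 in 15lox/1572T to 11.89 ± 0.36 in 15lox/1638N, and no step between neighbours in that order passed the test (adjusted p = 0.915, 0.948 and 0.84). The step from 15lox/1572T to 15lox/1638N, 0.41, was larger than the SD of either group, but their arrays overlapped.

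The Myc difference from wild type was -0.24 in 15lox/15lox (95% interval -1.16 to 0.69, adjusted p = 0.915), which leaves room for a level from 0.447 to 1.61 times that of wild type. Without 15lox/15lox array 3 it turned to 0.29 (adjusted p = 0.794). In 15lox/1638N the difference was 0.66 (95% interval -0.26 to 1.58, adjusted p = 0.479), and in 15lox/1572T it was 0.25 (adjusted p = 0.948). The intervals for Myc are the widest of the 26 and reach past a 2-fold change in each genotype. They extend down to 0.447 times wild type in 15lox/15lox, and up to 2.998 and 2.261 times in 15lox/1638N and 15lox/1572T. Changes of Myc within these intervals were therefore not excluded here.

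Ccnd1, the D cyclin most often described as a Wnt target in epithelial cells, had 3 probe sets. At 1417420_at the log2 values were 10.39, 10.64 and 9.796 in wild type, 9.84, 10.58 and 9.456 in 15lox/15lox, 10.77, 10.76 and 10.18 in 15lox/1638N and 9.909, 9.998 and 10.53 in 15lox/1572T. The groups overlapped, and so they did at 1417419_at and 1448698_at. All 3 probe sets were below wild type in 15lox/15lox, by -0.32 to -0.21 with adjusted p from 0.753 to 0.809. The upper ends of their intervals allowed at most 1.282 times the wild-type level, which bounds any rise of these Ccnd1 readings in this genotype. In 15lox/1638N the differences ran from -0.05 to 0.29 (adjusted p from 0.689 to 0.92) and in 15lox/1572T from -0.23 to -0.13 (adjusted p from 0.899 to 0.967).

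Ccnd2, the D cyclin that responds to cytokines in blood cells, had 7 probe sets with small differences. Its differences ran from -0.14 to 0.00 in 15lox/15lox, from -0.04 to 0.39 in 15lox/1638N and from -0.18 to 0.16 in 15lox/1572T, and the lowest adjusted p was 0.283. That lowest value belonged to 1416124_at in 15lox/1638N, with 11.42, 11.49 and 11.18 against 11.02, 10.87 and 11.02 in wild type, where the groups did not overlap (log2 0.39 ± 0.17 SE). The other 6 probe sets did not share that shift, at -0.04 to 0.21. Over all 7 the 95% intervals in 15lox/15lox spanned 0.718 to 1.329 times wild type. Probe sets 1448229_s_at and 1455956_x_at carry suffixes by which the maker marks probes that may also match other transcripts.

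Ccnd3, the D cyclin needed for the expansion of lymphoid precursors, had 3 probe sets that disagreed. At 1438805_at the log2 values were 8.136, 8.06 and 8.599 in wild type and 7.319, 7.181 and 7.746 in 15lox/1638N. The 15lox/1638N arrays all lay below the wild-type arrays, with a difference of -0.85 ± 0.21 SE (95% interval -1.31 to -0.39, adjusted p = 0.081). At 1444323_at the wild-type arrays read 6.746, 7.117 and 6.411 and the 15lox/1638N arrays 7.431, 7.342 and 7.748. There all 15lox/1638N arrays lay above wild type, with a difference of 0.75 ± 0.24 SE (adjusted p = 0.157). The third, 1415907_at, differed by 0.19 (95% interval -0.03 to 0.41, adjusted p = 0.387).

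The opposite signs of a pair of probe sets mean that the array gives no single direction for Ccnd3 in 15lox/1638N. In 15lox/15lox the same 3 probe sets stood at -0.46, 0.26 and 0.04 for 1438805_at, 1444323_at and 1415907_at, with adjusted p from 0.483 to 0.939. In 15lox/1572T they stood at -0.23, 0.46 and -0.02. The groups overlapped at all 3 in these comparisons. Whether the probe sets read different transcript forms of Ccnd3 was not tested.

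Cd44, the hyaluronan receptor that takes part in the homing of progenitors to bone marrow, had 4 probe sets. At 1434376_at the log2 values were 12.27, 12.05 and 12.11 in wild type, 12.47, 12.34 and 12.57 in 15lox/15lox, 12.41, 12.44 and 12.38 in 15lox/1638N, and 12.46, 12.31 and 12.28 in 15lox/1572T. All 9 mutant arrays lay above all 3 wild-type arrays. The differences were 0.32 in 15lox/15lox (95% interval 0.11 to 0.53, adjusted p = 0.205), 0.27 in 15lox/1638N (adjusted p = 0.205) and 0.21 in 15lox/1572T (adjusted p = 0.73). These comparisons share the wild-type arrays, so the 3 values are not independent.

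At Cd44 probe set 1452483_a_at the wild-type arrays read 10.7, 10.52 and 10.5, the 15lox/15lox arrays 11.06, 10.86 and 10.76 and the 15lox/1638N arrays 10.84, 10.97 and 11.04. Both mutant groups lay above wild type, by 0.32 ± 0.11 SE in 15lox/15lox (adjusted p = 0.286) and 0.38 ± 0.11 SE in 15lox/1638N (adjusted p = 0.127). At 1423760_at the differences were 0.23 and 0.33, and the dim probe set 1443265_at, whose mean stood at percentile 10.1 of all probe sets, gave -0.01 and 0.08. Over the 4 probe sets the intervals allowed at most 1.471 times the wild-type level in 15lox/15lox and 1.56 times in 15lox/1638N. Between 15lox/15lox and 15lox/1638N the differences ran from -0.10 to 0.05, with adjusted p from 0.768 to 0.896.

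Sox4, a factor of the SoxC group that acts in B cell precursors, had 8 probe sets and the values highest above wild type in 15lox/15lox. At 1419156_at the log2 values were 10.61, 10.4 and 10.39 in wild type, 11.4, 11.14 and 10.74 in 15lox/15lox, 10.41, 10.52 and 10.77 in 15lox/1638N, and 10.5, 10.13 and 10.34 in 15lox/1572T. Every 15lox/15lox array lay above every wild-type array, whereas the other mutant groups overlapped wild type. The difference in 15lox/15lox was 0.63 ± 0.17 SE (1.544-fold, 95% interval 0.26 to 1.00, adjusted p = 0.134). Without 15lox/15lox array 3, the lowest of its group, it was 0.80 and passed (adjusted p = 0.031).

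The other Sox4 probe sets gave the spread around that value. At 1419155_a_at the wild-type arrays read 9.726, 9.605 and 9.399 and the 15lox/15lox arrays 10.41, 10.19 and 9.782, a difference of 0.55 ± 0.19 SE (adjusted p = 0.292). At 1455867_at the difference in 15lox/15lox was 0.53 (adjusted p = 0.312), and at 1433575_at it was 0.49 (adjusted p = 0.276). Over all 8 probe sets the differences in 15lox/15lox ran from 0.00 to 0.63 with a median of 0.47, and 5 of 8 had groups that did not overlap. The probe sets read the same gene, so they are repeat readings and not replicates. Sets 1443778_at and 1458332_x_at were dim, with means at percentiles 4.8 and 7.8 of all probe sets.

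Sox4 in 15lox/1638N followed another order of probe sets. At 1433575_at the 15lox/1638N arrays read 12.44, 12.51 and 12.35 against 12.09, 11.77 and 11.83 in wild type, a difference of 0.54 ± 0.16 SE without overlap (adjusted p = 0.144). At 1419156_at, which led in 15lox/15lox, the difference was 0.10 (adjusted p = 0.822). The median over the 8 was 0.24. In 15lox/1572T the median was -0.10, and 1419157_at, with 6.233, 5.57 and 5.561 against 6.397, 6.546 and 6.988 in wild type, stood lower by -0.86 without overlap (adjusted p = 0.65).

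Counts of probe sets without overlap were read against the same count over the array. In 15lox/15lox 7 of 26 lay wholly above wild type, against 6.92% of all probe sets, and they were the 2 of Cd44 and 5 of Sox4 described above. In 15lox/1638N 9 of 26 lay wholly above, against 12.3%, and 1 lay wholly below, against 14.2%. In 15lox/1572T 1 lay wholly above and 1 wholly below, against 4.74% and 7.88%. The probe sets of a gene share their transcript, so these counts are a description and carry no test.

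**Figure D2:**
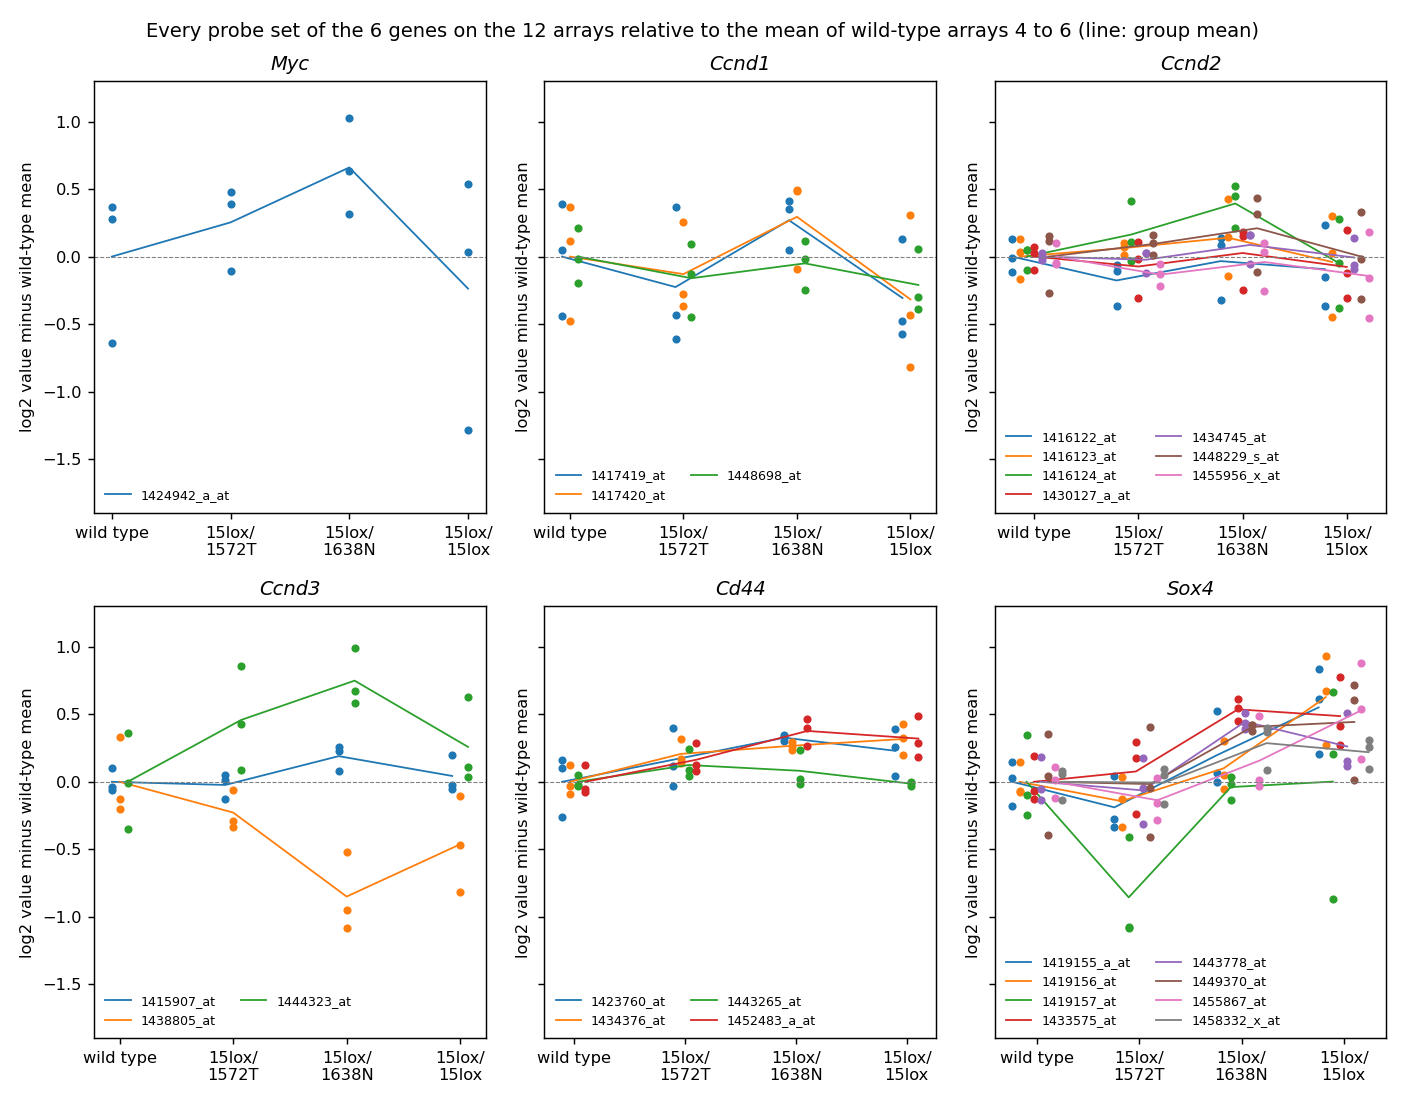
Log2 value of every probe set of the 6 genes on the 12 arrays, minus that probe set's mean over wild-type arrays 4 to 6 (y axis), by genotype (x axis). Points are arrays (n = 3 per group), lines join group means and colours are probe sets. The Myc panel shows 15lox/15lox array 3 far below the rest, the Ccnd3 panel shows 1438805_at and 1444323_at parting in 15lox/1638N, and the Sox4 panel shows most probe sets above 0 in 15lox/15lox.

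Among the mutant genotypes, no probe set of the 6 genes passed either. With limma, 0 of 26 were called between 15lox/15lox and 15lox/1638N, 15lox/15lox and 15lox/1572T, and 15lox/1638N and 15lox/1572T, where 0.186%, 1.00% and 0.171% of all probe sets were called and 2, 6 and 5 of the 26 had an unadjusted p under 0.05. Sox4 gave the lowest of these, at 1419156_at, with the 15lox/15lox arrays above the 15lox/1572T arrays by 0.77 ± 0.17 SE (1.705-fold, adjusted p = 0.0685). All 8 Sox4 probe sets were higher in 15lox/15lox than in 15lox/1572T, by 0.23 to 0.86, and in 3 of them the groups did not overlap, against 5.27% of all probe sets. The Sox4 differences of 15lox/1638N from 15lox/1572T ran from 0.24 to 0.82, again in 3 without overlap, against 7.04%, with a lowest adjusted p of 0.425.

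Myc, Ccnd1 and Ccnd2 were lower in 15lox/15lox than in 15lox/1638N at every probe set, without passing the test. For Myc the difference was -0.90 (95% interval -1.82 to 0.03, adjusted p = 0.581), and without 15lox/15lox array 3 it was -0.37. For Ccnd1 it ran from -0.61 to -0.16 and for Ccnd2 from -0.44 to -0.06, with lowest adjusted p of 0.589 and 0.546. The groups overlapped at all of these probe sets.

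Much of the spread of Myc, Ccnd1 and Ccnd2 lay between arrays of 1 genotype. Wild-type array 6, 15lox/15lox array 3 and 15lox/1638N array 3 lay below their group means for Myc by -0.64, -1.05 and -0.34 on the log2 scale. The same 3 arrays were below their group means at all 3 Ccnd1 probe sets, with mean deviations of -0.37, -0.32 and -0.27. They were below at 6, 7 and 7 of the 7 Ccnd2 probe sets. Of 19 proliferation markers they were below at 17, 17 and 13, and of 20 Myc target genes at 17, 16 and 16. The mean deviations were small, at -0.13, -0.13 and -0.06 for the markers and -0.13, -0.11 and -0.11 for the targets. The share of all probe sets below the group mean is not given here for any array. Whether such counts reflect a shift of the whole array was therefore not tested. These 3 arrays were picked out after their values were seen, and other arrays went another way. 15lox/1572T array 2 was below its group mean for Myc by -0.36, yet at 1 of 7 Ccnd2 probe sets and 3 of 19 proliferation markers. 15lox/15lox array 1 had the highest Myc deviation, 0.77, and was below its group at all 3 Ccnd1 probe sets and 16 of 20 Myc target genes.

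Those deviations did not extend alike to the other genes. Sox4 on 15lox/15lox array 3 was below its group mean at 7 of 8 probe sets (mean deviation -0.33), while on wild-type array 6 and 15lox/1638N array 3 the mean deviations were 0.06 and 0.11. 15lox/1572T array 1 was below its group at 18 of 19 proliferation markers, 18 of 20 Myc target genes and all 3 Ccnd1 probe sets, but above it for Myc by 0.22. The part of these arrays' proliferation state in the Myc and cyclin values was not tested.

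**Figure D3:**
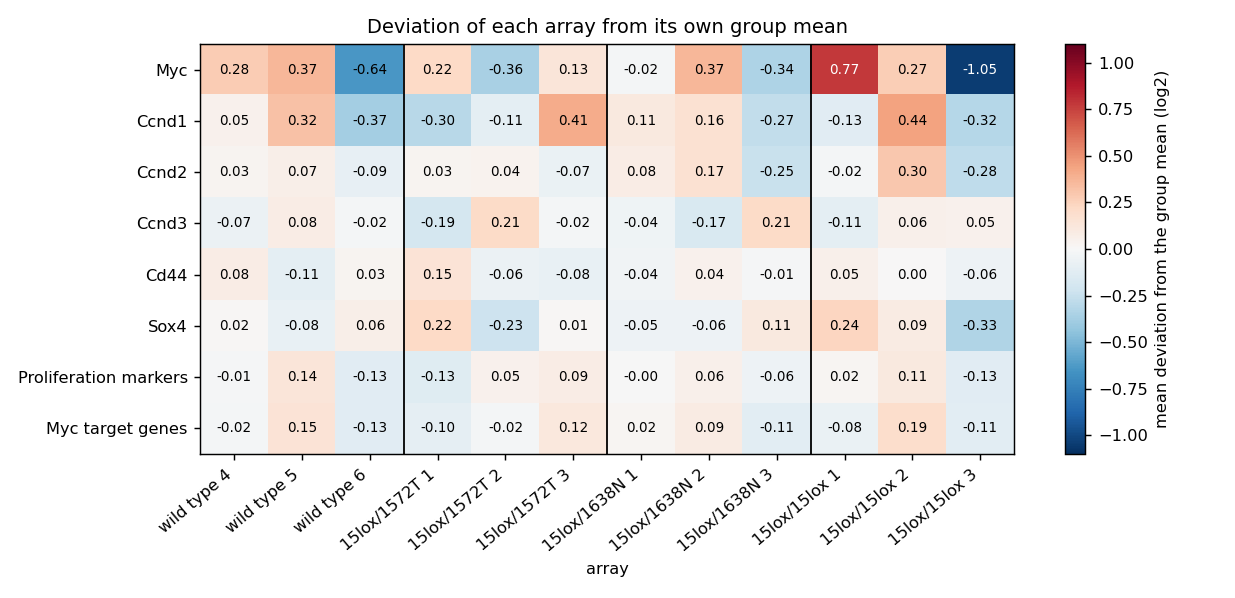
Mean deviation of each array from its own group mean on the log2 scale (colour and printed value) for the 6 genes, over their probe sets, and for the lists of proliferation markers and Myc target genes (y axis) on 12 arrays (x axis). The lowest value is Myc on 15lox/15lox array 3 at -1.05, and Ccnd1 is below 0 on the same array as well as on wild-type array 6 and 15lox/1638N array 3.

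The partners of these genes were followed with lists of known biology, 1 probe set per gene. Of genes, 1.60% were called higher and 0.506% lower in 15lox/15lox, 0.769% and 1.28% in 15lox/1638N, and 0.0165% and 0.0330% in 15lox/1572T. Among 19 genes of cyclin D partners and G1 control, such as the kinases, their inhibitors and the E2f factors they release, 0 passed in any comparison with wild type, with an unadjusted p under 0.05 for 1, 7 and 1 in 15lox/15lox, 15lox/1638N and 15lox/1572T. Their differences ran from -0.54 to 0.34 in 15lox/15lox and their median was 0.00. In 15lox/1638N they ran from -0.51 to 0.78 with a median of 0.11, and in 15lox/1572T from -0.46 to 0.35.

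The genes around and below Myc had no call either. Of 14 genes of the Myc network, which hold its dimer partners and antagonists, 0 passed in any of the 3 comparisons by limma. An unadjusted p under 0.05 was found for 2, 6 and 0 of them. Their differences ran from -1.12 to 0.10 in 15lox/15lox, from -1.21 to 0.37 in 15lox/1638N and from -0.62 to 0.22 in 15lox/1572T. Mycl was the lowest in each. Of 20 Myc target genes, mainly of ribosome production and metabolism, 0 passed, and 0, 5 and 0 had an unadjusted p under 0.05. The targets' median difference was 0.06 in 15lox/15lox, 0.23 in 15lox/1638N and 0.13 in 15lox/1572T, against -0.05, -0.03 and -0.03 over all genes. In 15lox/1638N, where Myc itself had its highest mean, the targets ran from -0.08 to 0.45.

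Of 19 proliferation markers, genes of DNA replication and mitosis, 0 passed in the 3 comparisons with wild type by limma, with 0, 3 and 1 at an unadjusted p under 0.05 and medians of 0.02, 0.11 and -0.05. The Sox family gave 0 of 12, with 3, 2 and 0 at an unadjusted p under 0.05. Among 12 ligands and partners of Cd44, Cd74, the invariant chain that pairs with Cd44 as a receptor, fell by 3.58 on the log2 scale in 15lox/1638N (adjusted p = 0.0318). Its wild-type arrays read 11.92, 12.89 and 10.69. The Cd74 differences of -2.45 in 15lox/15lox (adjusted p = 0.158) and -2.13 in 15lox/1572T (adjusted p = 0.567) did not pass, and with all 6 wild-type arrays Cd74 passed in 15lox/15lox too. Of 17 other growth-linked Wnt targets, Abcb1a, a drug efflux pump, fell by 1.49 in 15lox/1638N (adjusted p = 0.0415), and no other member passed. An unadjusted p under 0.05 was found for 6, 4 and 2 of these 17 in 15lox/15lox, 15lox/1638N and 15lox/1572T. Their median differences were -0.24, -0.13 and -0.05, against -0.05, -0.03 and -0.03 over all genes. In 15lox/1638N they ran from -1.49 to 1.08.

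The Wnt feedback and reporter genes were the list in which members passed in number. In 15lox/15lox 10 of 14 rose and 0 fell, with a median of 1.79. In 15lox/1638N 6 of 14 rose and 0 fell, with a median of 0.62, and in 15lox/1572T 0 passed, with 1 at an unadjusted p under 0.05. Without wild-type array 6, 6 passed in 15lox/15lox, and 3 passed in 15lox/1638N without wild-type array 4, 5 or 6 or without 15lox/1638N array 2. Without 15lox/1572T array 1, 1 passed in 15lox/1572T. With sex as a covariate 6 passed in 15lox/15lox and 5 in 15lox/1638N.

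Named by rule, Nkd1, an inhibitor of the pathway, rose by 2.39 in 15lox/15lox (adjusted p = 3.23e-05) and by 0.98 in 15lox/1638N (adjusted p = 0.023) on the log2 scale. Apcdd1, an inhibitor at the cell surface, rose by 3.05 (adjusted p = 4.84e-05) and 2.14 (adjusted p = 0.0016). Tnfrsf19, a TNF receptor family member, rose by 2.39 in 15lox/15lox (adjusted p = 5.39e-05) and stood 1.76 higher there than in 15lox/1638N (adjusted p = 0.00434). Wif1, a secreted Wnt inhibitor, was 1.61 higher in 15lox/15lox than in 15lox/1638N (adjusted p = 0.00638). By contrast the largest difference from wild type at any probe set of the 6 genes was 0.86 in size.

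**Figure D4:**
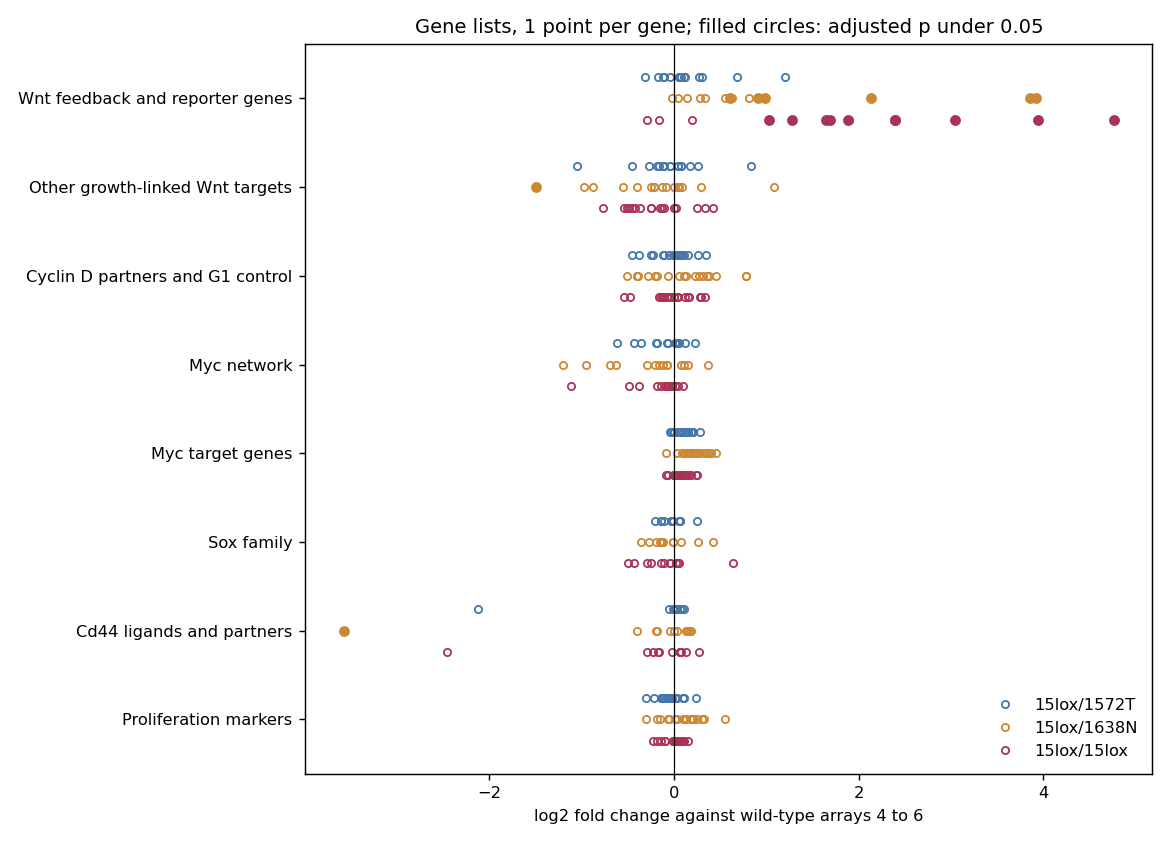
Log2 fold change against wild-type arrays 4 to 6 (x axis) of the genes of 8 lists (y axis) in the 3 mutant genotypes, 1 point per gene (n = 3 arrays per group), filled where the adjusted p was under 0.05. Filled points lie mostly in the Wnt feedback list, 10 for 15lox/15lox and 6 for 15lox/1638N. The cyclin, Myc and proliferation lists hold no filled point. Their points reach from -1.21 (Mycl) to 0.78 (Ccne1), both in 15lox/1638N.

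Markers of other cell types moved beside these results. Cd14, a monocyte receptor, was the single myeloid marker of 9 to pass, and it rose in all 3 mutants, by 2.45 in 15lox/15lox, 3.56 in 15lox/1638N and 2.53 in 15lox/1572T (adjusted p = 3.64e-05, 3.04e-05 and 0.00116). Among 8 lymphoid markers, Cd3g fell by 1.28, 1.45 and 1.27, and Il2rb fell by 1.68 in 15lox/15lox and 1.66 in 15lox/1638N. In 15lox/1572T the Il2rb difference was -1.31 (adjusted p = 0.0997), and it passed there with all 6 wild-type arrays. The mean over the lymphoid list was 6.34 to 6.43 on the wild-type arrays and 5.80 to 6.02 on the mutant arrays, and 7 of its 8 genes stood below percentile 40. Of 7 stem and progenitor, 7 erythroid and megakaryocyte and 10 epithelial and stromal markers, 0 passed in the 3 comparisons by limma, with 3, 2 and 3 gene-comparison pairs at an unadjusted p under 0.05. The part of these cells in the Sox4, Cd44 and Ccnd3 values was not tested.

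Across the 12 arrays each gene's brightest probe set was set beside all genes with an SD of at least 0.3, as a description in which group, array and depth of labelling are shared. For Myc the most similar genes were Med30 (Pearson r = 0.973), Pfdn2 (0.97) and Bpnt1 (0.966), and the least similar was Armcx2 (-0.914). For Ccnd1 they were Tomm40 (0.896), Ddx51 (0.885) and Setd6 (0.883), with Slc4a8 (-0.897) at the other end. For Ccnd2 they were Kif21a (0.837), Lrch2 (0.817) and Rnf225 (0.806), with Rgs11 (-0.921). None of these was a listed feedback gene of the pathway. So few names out of 3210 to 3211 candidates cannot show whether these genes follow the feedback genes.

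The remaining genes had other companions. For Ccnd3 at 1415907_at they were Wdr18 (0.829), Rflnb (0.801) and Aarsd1 (0.786), with Zfp54 (-0.821) as the least similar. For Cd44 at 1423760_at they were Sh3pxd2b (0.913), Atxn1 (0.888) and Dach1 (0.885), with Vars (-0.909). For Sox4 at 1433575_at they were Galnt7 (0.927), Poglut3 (0.914) and Rasa2 (0.902), with Krt80 (-0.886). They are the extremes of 3210 to 3211 candidate genes over 12 arrays.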

How the data were processed

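Each of the 15 samples was hybridised to 1 array, and the authors deposited log2 values per probe set, as read from the range of the values. RMA and mm9 are listed, per the submitters' processing notes, with neither role nor version; a background or quality step is not given in the sources used here. A single probe set summary hides the background of its probes, so dim probe sets have an unknown floor. Symbols came from the platform annotation, where 34958 probe sets had 1 symbol, 932 several and 9211 none here.

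All 45101 probe sets entered a linear model (lmFit and eBayes of limma 3.58.1, R 4.3.3) on wild-type arrays 4 to 6 and the 9 mutant arrays, with 8 residual degrees of freedom, 6 contrasts, two-sided tests and Benjamini-Hochberg adjustment per contrast; the threshold was an adjusted p under 0.05. The fit was tested on simulated data. Gene lists used each gene's probe set with the highest mean. The 6 genes, the lists and the tests were chosen with earlier results of these data known. Named from each list were up to 4 called genes of lowest p per comparison with wild type and up to 2 between mutants. Named by likeness were the 3 highest and the 1 lowest correlation per gene. Alternatives covered the wild-type arrays used, normalization, the filter, eBayes options, array weights, sex, the threshold, a replicate block and each array left out.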

Additional observations from a re-analysis of the deposited data

Results flagged for a closer look

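Over the 6 wild-type arrays, 26 probe sets of the 6 genes were examined for an array that lies apart, and 2 had one; chance marks about 1 group in 20, and arrays 1 to 3 look shifted onto arrays 4 to 6, so the 6 values are not independent. Ccnd2 at 1416124_at read 10.87 on wild-type array 5, below the others at 10.97 to 11.02. Cd44 at the dim probe set 1443265_at read 4.35 on wild-type array 6, above the others at 4.268 to 4.278.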

How the results depend on the processing

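No result of the 6 genes that passed a test turned its direction, since 0 of 26 probe sets passed in any of the 6 comparisons as reported; limma found 7, 9 and 1 at an unadjusted p under 0.05 against wild type. With all 6 wild-type arrays, 4 passed in 15lox/15lox (Cd44 1434376_at and 1452483_a_at, Sox4 1419155_a_at and 1419156_at). In 15lox/1638N 7 passed (6 higher, and Ccnd3 1438805_at lower), and 1 passed between 15lox/15lox and 15lox/1572T. Of all 45101 probe sets, the same fit called 1951, 3912 and 697 in these comparisons. It counts the shifted arrays as independent. Fitting wild-type arrays 1 to 3 apart, 1 passed in 15lox/1638N (Ccnd3 1438805_at) and 1 between 15lox/15lox and 15lox/1572T (Sox4 1419156_at). The differences stayed at -0.85 and 0.77, while the SE fell from 0.21 to 0.20 and from 0.17 to 0.16. Arrays 1 to 3 still entered the shared estimate of spread in that fit. Between 15lox/15lox and 15lox/1572T, Sox4 1419156_at also passed with trend and robust options (1), with array weights (1) and at an adjusted p under 0.10 (1). Array weights called 1 in 15lox/15lox and 2 in 15lox/1638N, and the threshold of 0.10 called 1 in 15lox/1638N. Leaving out each array in turn gave 0 to 1 in 15lox/15lox and 0 to 2 between 15lox/15lox and 15lox/1572T, both maxima without 15lox/15lox array 3; Sox4 1419156_at then gave adjusted p = 0.031 and 0.0158, and the cause was not tested. The other alternatives left these counts at 0: quantile normalization, median centring, 1 probe set or the mean per gene, the filter above the median level, sex, fits of the 2 groups compared and the threshold of 0.01.

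With the replicate number as a replicate block, 1 probe set passed in 15lox/1638N (Ccnd3 1438805_at, -0.81, adjusted p = 0.0463). The arrays of the control group carry replicate numbers that no mutant array has. This difference therefore rests on the shifted wild-type arrays and not on the control group. The numbers were not taken as pairs: deviations of same-numbered mutant arrays correlated at -0.071 to 0.379, 6 of 9 pairs above 0.1, and 5 of 9 arrays correlated best with their own number in both other groups.

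With 6 wild-type arrays the lists also gained calls in 15lox/1638N, to 2 of 19 cyclin D partners, 3 of 14 Myc network genes, 4 of 17 other growth-linked Wnt targets (Ppard, Met, Id2 and Abcb1a; 1 higher, 3 lower), 1 of 19 proliferation markers (Ccnb2, lower) and 1 of 7 stem and progenitor markers (Flt3, lower). In 15lox/15lox, 2 of 12 Sox family genes, 2 of 17 growth-linked targets (Id2 and Ephb3, lower) and Cd74 passed. Lymphoid, myeloid and epithelial lists gained calls as well. Of these genes, those other than Cd74 and Abcb1a were named after their values were seen. The fit with 6 wild-type arrays called 3912 of all 45101 probe sets in 15lox/1638N and 1951 in 15lox/15lox. Whether the list counts exceed that rate was not tested. At an adjusted p under 0.01, 6 and 3 Wnt feedback genes passed in 15lox/15lox and 15lox/1638N. Counts over all probe sets moved more. Against wild type, 674 in 15lox/15lox became 1951 with 6 wild-type arrays and 387 to 753 with an array left out; 623 in 15lox/1638N became 3912 and 159 to 882; 13 in 15lox/1572T became 283 and 7 to 25. Between mutants, 84 (15lox/15lox against 15lox/1638N) became 220 and 24 to 185, 451 (against 15lox/1572T) became 697 and 329 to 496, and 77 (15lox/1638N against 15lox/1572T) became 157 and 39 to 89. With 3 arrays per group and no detection calls used here, signal over background at the dim probe sets of Sox4 and Cd44 is not known.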
